A study of Caenorhabditis elegans with 205 samples.

Results

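Potassium channels that open on depolarization or on a rise in calcium end action potentials, set the resting potential and limit transmitter release. Transcripts of 10 Caenorhabditis elegans genes for such channels were followed across sorted neurons. They were chosen by symbol, as the voltage-gated and calcium-activated channel genes shk-1, shl-1, egl-36, shw-1, shw-3, exp-2, egl-2, unc-103, slo-1 and slo-2, and are 10 of the 46927 genes of the deposited count table. The table holds 180 libraries of 46 neuron classes and 25 libraries of 7 classes, whose labels are filled in differently, 53 classes in all, each class known by a short anatomical code such as AFD or VC. Worms were grown on nutrient agar with E. coli NA22, cells of the class were isolated by fluorescence-activated cell sorting, and total RNA was made into libraries with the Tecan SoLo Ovation kit, which the extraction protocol names for both label sets. The labels call the 180 libraries untreated and repeat the kit in their description, and those of CEP, DVB, HSN, PVP, PVQ, RME and SIA do neither. They name no strain, age or reporter, so the groups are known here by class alone, and the classes are compared with each other. Classes had 2 to 6 libraries, which are named below by class and number (AFDr35).

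Voltage-gated channels of this superfamily are built of 4 subunits around a pore. In Drosophila the Shaker, Shal, Shaw and EAG genes defined branches that recur in the worm. Shaker and Shaw channels are mostly delayed rectifiers, Shal channels give a fast transient current active below spike threshold, and ERG channels close slowly and carry current after a spike. SLO channels combine voltage with an intracellular ion. SLO-1 is gated by calcium, and worm SLO-2 by calcium and chloride.

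The library with the fewest counts was AIYr67, at 798303, and RMEr250 had the most, at 24647021. The median total was 4692492. Levels are given in CPM, read counts scaled to library size with TMM factors. A count of 3, the limit that a count of 0 allows, equals 0.643 CPM in the median library and 6.37 CPM in AIYr67, and covers counting error only. Of 32 pairs of a class and its marker gene, some genes serving several classes, the class ranked first among all 53 in 23 and within the first 6 in 31. The exception was lin-11 in VC, where the class ranked 10th. The libraries also differed in how neuronal they were. A summed list of 8 genes of synaptic and neuropeptide release ran from 384 CPM in NSMr68 to 53970 CPM in AVLr232. A summed list of genes of other tissues ran from 267.3 CPM in AWAr17 to 32410 CPM in HSNr237. The library labelled IL2r94 stood apart from the other IL2 libraries. Its klp-6, a kinesin gene of IL2 neurons, had 23.5 CPM, against 451 to 651 CPM in the other 3, and its neuronal sum was 693 CPM, against 9410 to 12270 CPM. In bulk RNA, fewer cells of the class in the sort and less RNA per cell cannot be told apart. The labels do not say that libraries of a class came from separate cultures, so p-values measure only the spread between libraries.

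The genes lie on 5 chromosomes of the WBcel235 assembly, used here for annotation. The Shaker gene shk-1 (WBGene00014261) spans II:9758232-9768285 on the plus strand. The Shal gene shl-1 (WBGene00022240) spans IV:6378285-6384070 on the minus strand. The 3 Shaw genes are egl-36 (WBGene00001202, X:10734326-10744355, plus), shw-1 (WBGene00008819, II:8305745-8321471, minus) and shw-3 (WBGene00004793, V:12973261-12987161, minus). The gene exp-2 (WBGene00001374) spans V:6131400-6143970 on the plus strand. The EAG gene egl-2 (WBGene00001171) spans V:1289373-1299332 on the minus strand, and the ERG gene unc-103 (WBGene00006830) spans III:4115385-4147278 on the plus strand. The genes slo-1 (WBGene00004830) and slo-2 (WBGene00004831) span V:18492261-18508212 on the plus strand and X:11394605-11405931 on the minus strand. All are protein-coding, and counts are summed over their exons. Exons of shk-1, shl-1, shw-1 and egl-2 overlap no other annotated exon. Those of the other 6 overlap exons of ncRNA genes or, for egl-36, shw-3 and slo-2, of protein-coding genes on the opposite strand by at most 21 bases. The strand setting of the counting is not given in the sources used here, so reads in those bases are uncertain.

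Each of the 10 genes differed among the 53 classes in edgeR's quasi-likelihood F-test with Benjamini-Hochberg adjustment. Since 95.5% of the 20427 genes tested did so too, that count says little about channels. The share of variance of log2 CPM between classes was 0.869 for egl-36, 0.867 for shw-1, 0.852 for shk-1 and 0.842 for shl-1, against a median of 0.524 over all tested genes. It was between 0.708 and 0.818 for shw-3, exp-2, egl-2, unc-103 and slo-2. For slo-1 it was 0.498.

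Against the mean of the other 52 classes, each weighted the same, a class was called higher in 25.5% of 530 pairs of gene and class, and lower in 90 of them. Over all tested genes 11.4% of such tests were called higher and 3.05% lower. That contrast takes the mean of the fitted log values of the other classes. With the libraries of the other classes pooled as a single group, the counts were 13 higher and 11 lower, with 2.07% and 0.638% of all tests called. All 24 were also calls of the first contrast. Each of them is named below.

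**Figure D1:**
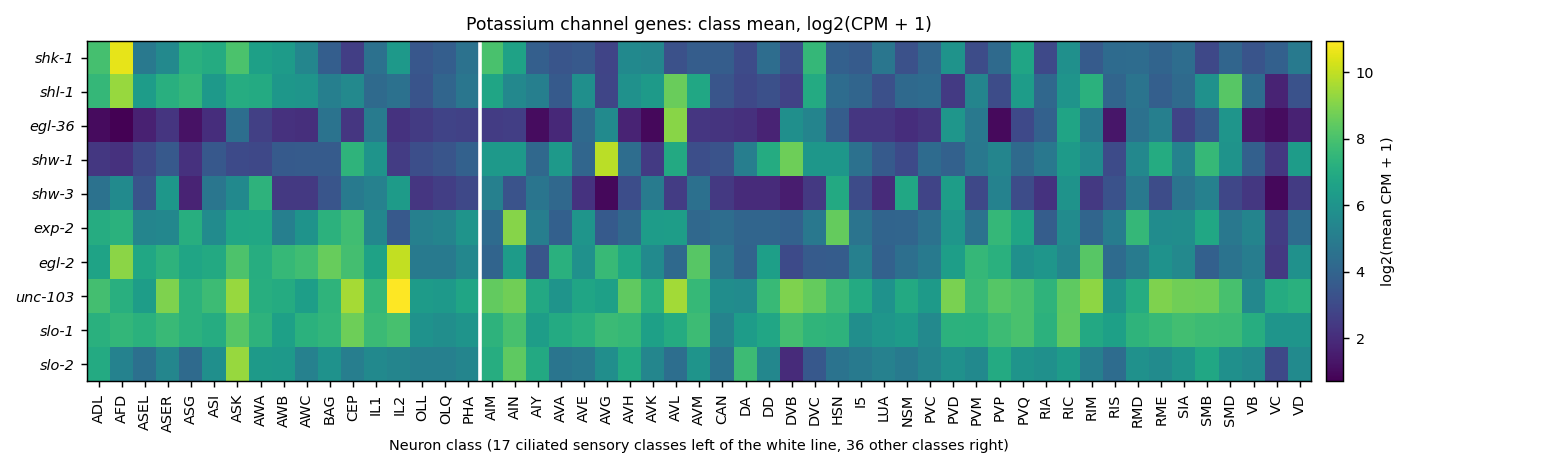
Class means of the 10 channel genes, as log2(mean CPM + 1), in 17 ciliated sensory classes (left of the white line) and 36 other classes. The rows of unc-103 and slo-1 are filled throughout, while egl-36 is dark in most classes and bright in AVL at 556 CPM.

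The gene shk-1 encodes the Shaker channel, a delayed rectifier that repolarizes body wall muscle and AWA neurons. It was highest in AFD, the thermosensory neuron. The 5 AFD libraries had 2995, 616, 1678, 721 and 1621 CPM. Each exceeded all libraries of the other 52 classes, of which the highest was AIMr192 at 549.9 CPM. AFD averaged 1526 ± 957 CPM (SD, n = 5), and the median class had 18.8 CPM. The log2 fold change of AFD over the other classes was 5.97 ± 0.18 (SE, edgeR adjusted p = 1.53e-71), and 4.96 with the other libraries pooled. ASK, AIM, ADL and DVC followed at 261.8, 259.6, 246.6 and 183.8 CPM. Neighbours in that order overlapped in their libraries. The lowest class was CEP, a dopaminergic mechanosensory neuron, with 5.48, 8.47, 5.82 and 0.342 CPM. CEP was called lower than the mean of the others (log2 fold change -2.42 ± 0.51, edgeR adjusted p = 7.62e-05), though not with the other libraries pooled.

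The gene shl-1 encodes the Shal channel, which carries a transient A-type current. It too was highest in AFD, with 1031, 367, 372, 661 and 838 CPM. AVL followed with 366, 331 and 459 CPM, and SMD with 391.7, 431, 232.9 and 208.4 CPM. The libraries of AFD and AVL overlapped, as did those of AVL and SMD. AFD was higher than the other classes by 4.35 ± 0.23 on the log2 scale (SE, edgeR adjusted p = 4.42e-41), and by 3.43 against the pooled libraries. ADL and ASG, sensory neurons of the amphid, were next at 184.7 and 178.8 CPM. VC, a motor neuron of the vulva, was lowest at 2.34 ± 2.29 CPM (SD, n = 6). VC ran from 0 to 6.64 CPM with a median of 2.07, and was called lower in both contrasts (-3.83 ± 0.51, edgeR adjusted p = 8.17e-11 against the class mean). Scaled to the 8 neuronal genes, the lowest class was another for 6 of the 10 genes. It was DVB for shl-1, shw-3, exp-2 and egl-2, and AVL for shk-1 and slo-1.

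The Shaw gene egl-36 takes its name from egg-laying mutants, in which an altered channel opens too easily and dampens egg-laying and enteric muscle. Its pattern was the most restricted of the 10 by the ratio of its top class to its median class. AVL, a GABAergic neuron that drives the expulsion step of defecation, had 544, 454 and 671 CPM. The next highest library of any class was RICr134 at 173.2 CPM. AVL averaged 556.1 ± 109.1 CPM (SD, n = 3), 137.8 times the median class at 4.04 CPM. AVL was higher by 6.52 ± 0.22 on the log2 scale (SE, edgeR adjusted p = 1.65e-63), by 5.43 with the other libraries pooled, and by 4.44 when libraries were scaled to the 8 neuronal genes. The neuronal sum in AVL was 31880 to 53970 CPM, the range that holds the highest library of all. RIC, PVD, SMD and DVB came next at 102, 68.1, 64.9 and 55.4 CPM. In 32 classes every library was under 10 CPM, and 28 of all libraries held 3 counts or fewer. AFD was lowest, with 2, 1, 1, 0 and 2 counts in its libraries (0 to 1.06 CPM), all under 3 counts. AFD and VC were called lower in both contrasts.

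The Shaw gene shw-1 was highest in AVG, an interneuron that pioneers the ventral cord. The AVG libraries had 373, 903 and 1596 CPM, and DVB had 194, 455 and 597 CPM. These ranges overlapped. AVG was higher than the other classes by 5.44 ± 0.23 (log2, SE, edgeR adjusted p = 3.75e-50) and DVB by 4.21 ± 0.27 (edgeR adjusted p = 3.53e-31). Both held with the other libraries pooled, at 4.41 and 2.97. SMB, CEP and DD followed at 190.5, 165.6 and 127.1 CPM. AFD was lowest again, at 3.53 ± 1.64 CPM (SD, n = 5), and VC had 4.19 CPM. Both were called lower in both contrasts. AFD, the class with the most shk-1 and shl-1, was thus among the lowest of the 53 for egl-36 and shw-1. Its last rank was not resolved for either. For shw-1, ASG had 3.55 CPM and overlapped AFD. For egl-36, AVK had 0.921 CPM and overlapped AFD, which had 0.636 CPM from counts all under 3.

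The Shaw gene shw-3 was low in most classes, with a median class of 7.69 CPM and 20 classes under 10 CPM in every library. AWA, an olfactory neuron known to fire calcium action potentials, had 331.3, 150.2, 123.7 and 32.55 CPM. HSN had 16.2, 312 and 36.9 CPM, NSM had 87.2, 12.2 and 233.7 CPM, and PVD had 65.4 and 102 CPM. All these ranges overlapped. AWAr20, the lowest AWA library, also had the lowest neuronal sum of the class, 1120 CPM against 4854 to 8532 CPM in the other 3. AWA was higher by 3.87 ± 0.30 (log2, SE, edgeR adjusted p = 1.33e-24), and by 2.92 with the other libraries pooled. Scaled to the 8 neuronal genes, NSM ranked first and AWA second. The part of neuronal content in the order was not tested. HSN was higher by 3.47 ± 0.35 (edgeR adjusted p = 4.95e-16), and was no longer called without the second library of each class, HSNr238 among them (1.40, adjusted p = 0.089). IL2 had 5.23 CPM in IL2r94 and 94.18, 106.2 and 110.8 CPM in the other libraries. AVG was lowest, at 0 to 1.87 CPM.

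The gene exp-2 encodes a channel that inactivates fast and recovers faster, much as vertebrate ERG does, and ends the action potential of pharyngeal muscle. It was highest in AIN, an interneuron, whose 6 libraries ran from 269.9 to 889 CPM with a median of 505.5 CPM. AIN was higher by 3.75 ± 0.21 (log2, SE, edgeR adjusted p = 6.72e-37), and by 3.09 with the other libraries pooled. HSN was second by its mean of 369.7 CPM, which rests on 930 CPM in HSNr238. The other HSN libraries had 64.2 and 115 CPM. HSNr238 also had the highest neuronal sum of the 3 (8387 CPM against 2436 and 2611) and an intestinal sum of 1076 CPM against 28880 and 21570. With the second library of each class left out, HSN was no longer called (log2 fold change 1.25, edgeR adjusted p = 0.0663, against 3.18 ± 0.31 with all libraries). Scaled to the 8 neuronal genes, HSN ranked first and AIN second. CEP, RMD and PVP followed in CPM at 225.1, 184.2 and 183.7. VC was lowest at 4.91 ± 2.71 CPM (SD, n = 6) and was called lower in both contrasts. AVL, in which EXP-2 is known to shape a negative-going spike, had 84.1, 70.2 and 97.8 CPM. These lay above the median class at 39.6 CPM and below the means of the first 5 classes.

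**Figure D2:**
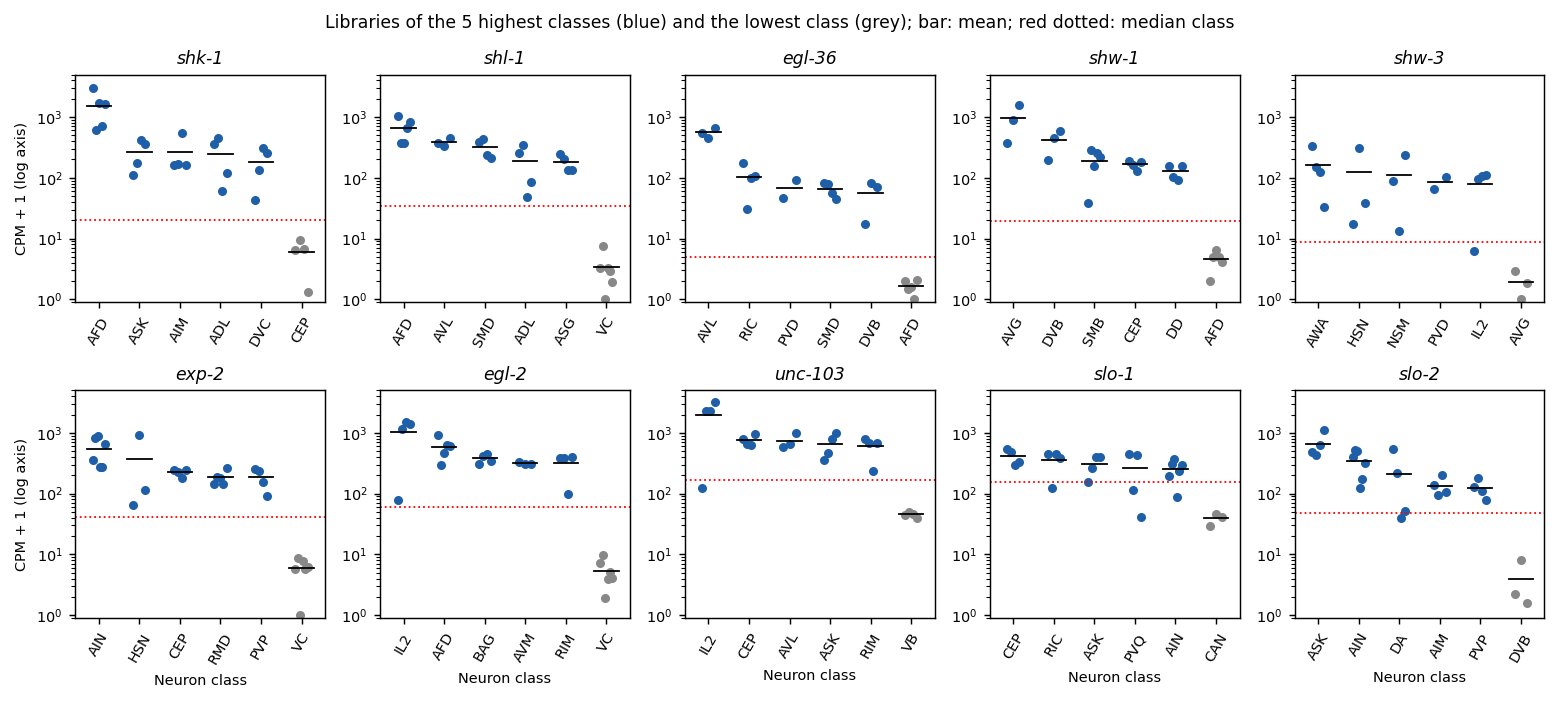
CPM + 1 on a log axis in each library (points) of the 5 classes with the highest mean (blue) and of the lowest class (grey) for each gene, with class means (bars) and the median class (red dotted line). AFD for shk-1 and AVL for egl-36 are clear of every other library, while the leading classes of slo-1 overlap.

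The EAG gene egl-2 was highest in IL2, ciliated neurons of the inner lips. IL2 had 78.95 CPM in IL2r94 and 1165, 1499 and 1399 CPM in the other libraries. Without IL2r94 the mean was 1354 ± 171.4 CPM (SD, n = 3), above the highest library of any other class, AFDr35 at 912 CPM. IL2 was higher by 4.19 ± 0.26 (log2, SE, edgeR adjusted p = 1.11e-33), and by 4.57 without IL2r94. AFD had 912, 300.0, 462, 626 and 597 CPM and was higher by 3.33 ± 0.26 (edgeR adjusted p = 1.14e-24). Both classes were called with the other libraries pooled, at 3.32 and 2.39. The oxygen and carbon dioxide sensing neuron BAG had 306, 416, 455 and 343 CPM. The touch neuron AVM had 334, 309 and 307 CPM. RIM had 378, 391, 98.7 and 397 CPM. VC was lowest at 4.35 ± 2.77 CPM (SD, n = 6) and was called lower in both contrasts.

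The ERG gene unc-103 had 10 CPM or more in every library of all 53 classes. The libraries also held transcripts of other tissues, so that level alone does not place unc-103 in each class. IL2 led here too, with 122.7 CPM in IL2r94 and 2274, 2270 and 3262 CPM in the other libraries. IL2r94 lay below the median class, at 166.7 CPM, and the other 3 exceeded all libraries outside IL2, of which the highest was SIAr243 at 1010 CPM. IL2 was higher by 3.45 ± 0.24 (log2, SE, edgeR adjusted p = 4.29e-28), by 3.84 without IL2r94, and by 3.06 with the other libraries pooled. CEP, AVL, ASK and RIM followed at 759, 743.5, 655 and 595 CPM, each overlapping the next. The motor neuron VB was lowest at 44.5 ± 4.19 CPM (SD, n = 4). Along with slo-1, unc-103 followed the neuronal list most closely. Over the class means its log2 CPM had r = 0.62 with the neuronal list, against 0.74 for slo-1 and a median of -0.04 over tested genes, as a description.

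The gene slo-1 encodes the BK channel, which limits transmitter release and is the main target of ethanol in the worm. It was the most even of the 10. Its top class was 2.69 times its median class, and every library had at least 10 CPM. CEP, RIC, ASK and AIN were called higher, and CAN, PVC, I5 and VC lower. The slo-1 calls depended on single libraries and on scaling. With the same-placed library of each class left out in turn, 1 to 6 classes were higher (1 without the third) and 2 to 4 lower (2 without the first, the second or the third), and 7 were higher without scaling factors. CEP had 545, 484, 299.7 and 332 CPM and RIC had 452, 120.4, 452 and 381 CPM. CEP was higher by 1.63 ± 0.34 (log2, SE, edgeR adjusted p = 7.89e-05), and by 1.45 with the other libraries pooled. CAN was lowest at 38.5 ± 9.01 CPM (SD, n = 3). Scaled to the 8 neuronal genes, CEP was higher by 0.66 (adjusted p = 0.0077), ASI ranked first, AVL was lowest, 7 classes were called higher, and 1 of the first 5 classes was shared with the TMM order. CAN had a neuronal sum of 843 to 1181 CPM, against 9175 to 15890 CPM in CEP. The part of neuronal content in the order of slo-1 was not tested.

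The gene slo-2 encodes a sodium-activated channel in mammals and a calcium- and chloride-activated one in the worm, where it carries much of the outward current of motor neurons. ASK, a pheromone-sensing neuron, had 476, 431, 636 and 1103 CPM. ASK was higher by 3.90 ± 0.23 (log2, SE, edgeR adjusted p = 2.02e-35), and by 3.38 with the other libraries pooled. AIN ran from 124 to 519.7 CPM with a median of 357 CPM and was called in both contrasts. DA, a cholinergic motor neuron, had 538.2, 213.5, 38.99 and 50.98 CPM. The 2 DA libraries high in slo-2 were also high in unc-4, a homeobox gene of that class, with 361 and 257 CPM against 35.2 and 110.3 CPM. DA was higher by 2.21 ± 0.29 (log2, SE, edgeR adjusted p = 1.4e-10), and by 1.23 without the first library of each class. DVB was lowest, at 1.20, 6.93 and 0.612 CPM, and was called lower in both contrasts. VC was also called lower in both.

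**Figure D3:**
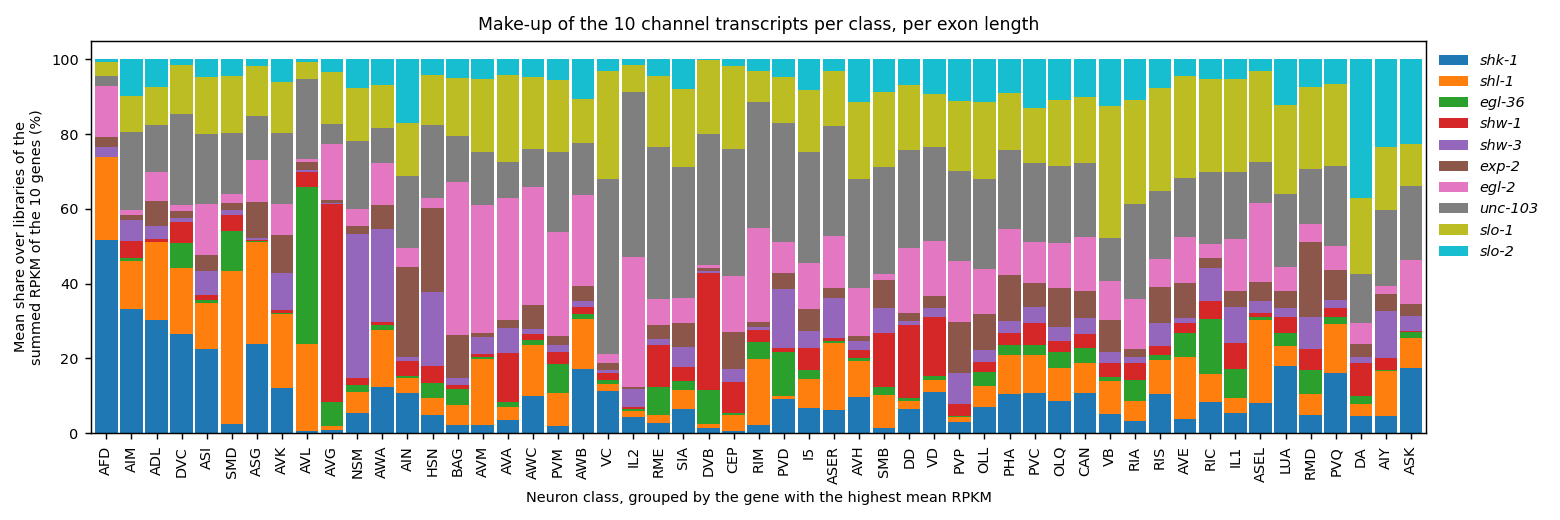
Mean share over libraries of each gene in the summed RPKM of the 10 genes, by class, classes grouped by the gene with the highest mean RPKM. The left end is shk-1 in AFD at 51.7%, and the widest block is that of unc-103, with 20 classes.

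Levels of different genes were compared per length, as RPKM (CPM per kilobase of summed exons). On that scale unc-103 was the leading channel transcript by class mean in 20 of the 53 classes and slo-1 in 10. Not all libraries of a class shared its leader. In PVQ, slo-1 led in 1 of 4 libraries. In DVB, unc-103 led in 2 of 3, with class means of 105.7 RPKM against 98.63 RPKM for shw-1. The EAG gene egl-2 led in 6 classes, shk-1 in 5, shl-1 and slo-2 in 3 each, and shw-3 and exp-2 in 2 each. The other 2 genes led in a single class each. In AVL, egl-36 made up 41.9 ± 2.22% of the summed RPKM of the 10 genes (SD, n = 3), and in AVG shw-1 made up 53.1 ± 9.76% (SD, n = 3). In AFD shk-1 made up 51.7 ± 12.6% (SD, n = 5). IL2 was led by unc-103 with 44.1 ± 5.63% (SD, n = 4), with egl-2 second. The summed RPKM was 1325 in AFD, 893 in IL2, 719 in AVL and 691 in ASK. At the other end it was 54.7 in CAN and 56.5 in VC.

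Counted by class, ASK was called higher for 9 of the 10 genes, all but shw-1, where it was called lower. In ASK 18.9% of all tested genes were called higher and 8.04% lower. VC was lower for 9 of 10 (9.92% of all tested genes) and higher for none (20.3%), with 0 higher at an unadjusted p under 0.05 either, and unc-103 as the exception (log2 fold change -0.59, edgeR adjusted p = 0.185). With the other libraries pooled, VC was called lower for 8 of the 10, all but shk-1 and unc-103. VC had a neuronal sum of 1297 to 1922 CPM and a median sum over other tissues of 2158 CPM. AIN and CEP were called higher for 6 genes each, where 13.8% and 13.4% of tested genes were called. AIN was lower for 0 (1.1%, also 0 at an unadjusted p under 0.05) and CEP for 1, shk-1 (4.22%). OLQ, PHA and RIS were called for none of the 10 in either direction by the edgeR test, where 5.97%, 14.6% and 2.02% of tested genes were higher and 2.07%, 3.36% and 0.352% lower, with 5, 2 and 6 lower and 0 higher at an unadjusted p under 0.05. In RIC and RMD no library was under 10 CPM for any of the 10 genes. In VC that held for 2 of them.

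The Pearson r of log2(CPM + 1) between pairs of the genes, over the 53 class means, had a median of 0.275 over 45 pairs, and 35 pairs were above 0. The highest was 0.66 for unc-103 with slo-1, followed by 0.55 for shk-1 with shl-1 and 0.55 for egl-36 with shw-1. The lowest was -0.39 for shk-1 with shw-1. The classes share libraries and depth across genes. With libraries scaled to the 8 neuronal genes the median was 0.187 and the highest 0.488, for shk-1 with shl-1. On that scale unc-103 with slo-1 had 0.34. These are descriptions of the 53 classes.

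Sensory neurons with cilia meet the outside world and in the worm often signal with graded potentials. Set against the other 36 classes, 17 ciliated sensory classes had more transcript of 5 channel genes and less of 2. The SE and p-values measure the spread between libraries of these fixed classes. They do not measure the spread among classes, and so do not extend to ciliated neurons as a kind. Of all tested genes 12.3% were called higher and 12.1% lower. The increase was 1.90 ± 0.13 for egl-2 (log2 fold change, SE), 1.49 ± 0.12 for shk-1, 1.28 ± 0.13 for shl-1, 0.93 ± 0.12 for exp-2 and 0.80 ± 0.15 for shw-3. The largest edgeR adjusted p among them was 5.83e-06, for shw-3. The other Shaw genes went the opposite way, with -1.77 ± 0.14 for shw-1 (edgeR adjusted p = 9.18e-24) and -0.92 ± 0.16 for egl-36 (edgeR adjusted p = 2.42e-07). By class means, egl-2 ran from 28.4 CPM in OLL to 1035 CPM in IL2 with a median of 134.1 CPM in ciliated classes. In the other classes it ran from 4.35 CPM in VC to 317 CPM in AVM with a median of 38.1 CPM. For shw-1 the medians were 9.73 CPM in ciliated and 35.2 CPM in other classes, and CEP, at 165.6 CPM, was the ciliated class with most of it. The groups overlapped for every one of the 10 genes.

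The genes unc-103, slo-1 and slo-2 were not called, with log2 fold changes of 0.11 ± 0.11, 0.17 ± 0.13 and 0.18 ± 0.12 (edgeR adjusted p = 0.653, 0.424 and 0.324). Scaled to the 8 neuronal genes, slo-1 was called higher by 0.26 (adjusted p = 0.000405). The split of calls over all genes moved with the scaling. Of all called genes 50.5% were higher with TMM, 29.8% without scaling factors and 72.5% with the neuronal genes. The call of egl-36 was lost without the first library of each class (adjusted p = 1), when AIY held no count of it.

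**Figure D4:**
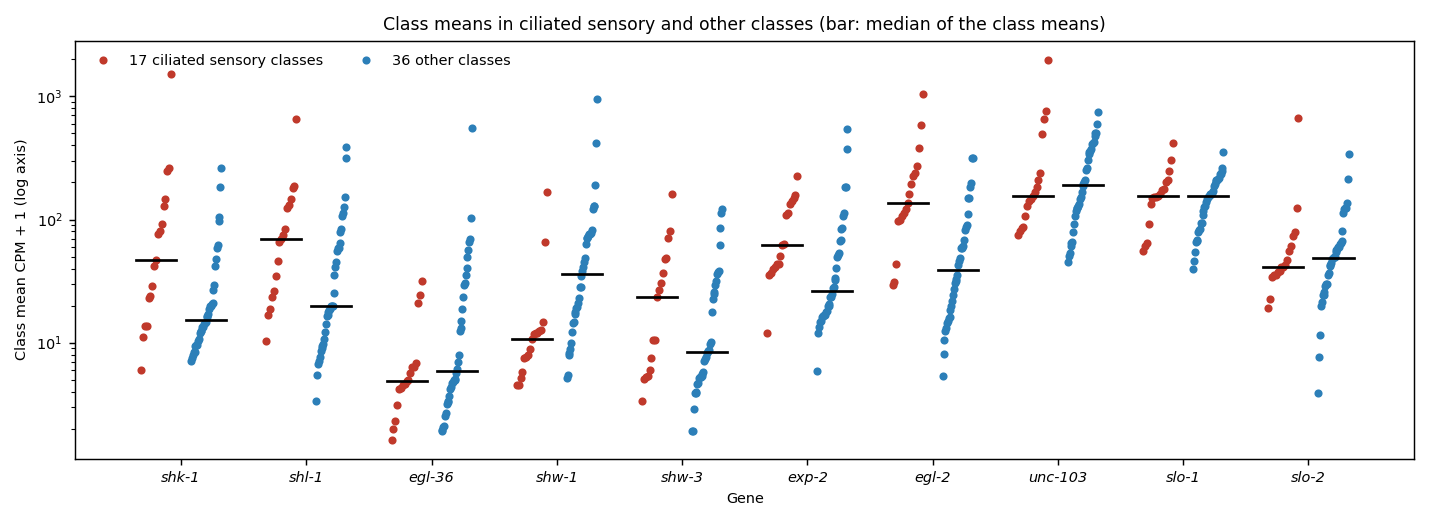
Class mean CPM + 1 on a log axis for each gene in 17 ciliated sensory classes (red) and 36 other classes (blue), with bars at the medians of the class means. The medians of egl-2 are 134.1 CPM in ciliated and 38.1 CPM in other classes, and those of slo-1 are 154.3 CPM in ciliated and 153.1 CPM in other classes.

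Related genes were read in the same contrast. Of 12 further channel genes of the Kv, KCNQ and small-conductance calcium-activated families, 11 were called higher in the ciliated classes, all but kqt-2 (0.23 ± 0.17, edgeR adjusted p = 0.409). The size ran from 1.18 ± 0.14 for kvs-1 to 2.84 ± 0.16 for kvs-4. The median difference of log2(class mean CPM + 1) was 1.53 for these 12 genes and 0.44 for the 10, against -0.03 over all tested genes. The KCNE-like subunit gene mps-1, whose product works with KVS-1 in chemosensory neurons, was higher by 3.03 ± 0.16 (edgeR adjusted p = 6.48e-40). Its relative mps-2 was lower, with a log2 fold change of -0.60 ± 0.18 (edgeR adjusted p = 0.00646). Of 6 genes that act with SLO-1, none was higher. The genes erg-28, dyb-1 and stn-1 were lower, by -0.47, -0.37 and -0.29 as log2 fold changes, and bkip-1, ctn-1 and islo-1 were not called.

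**Figure D5:**
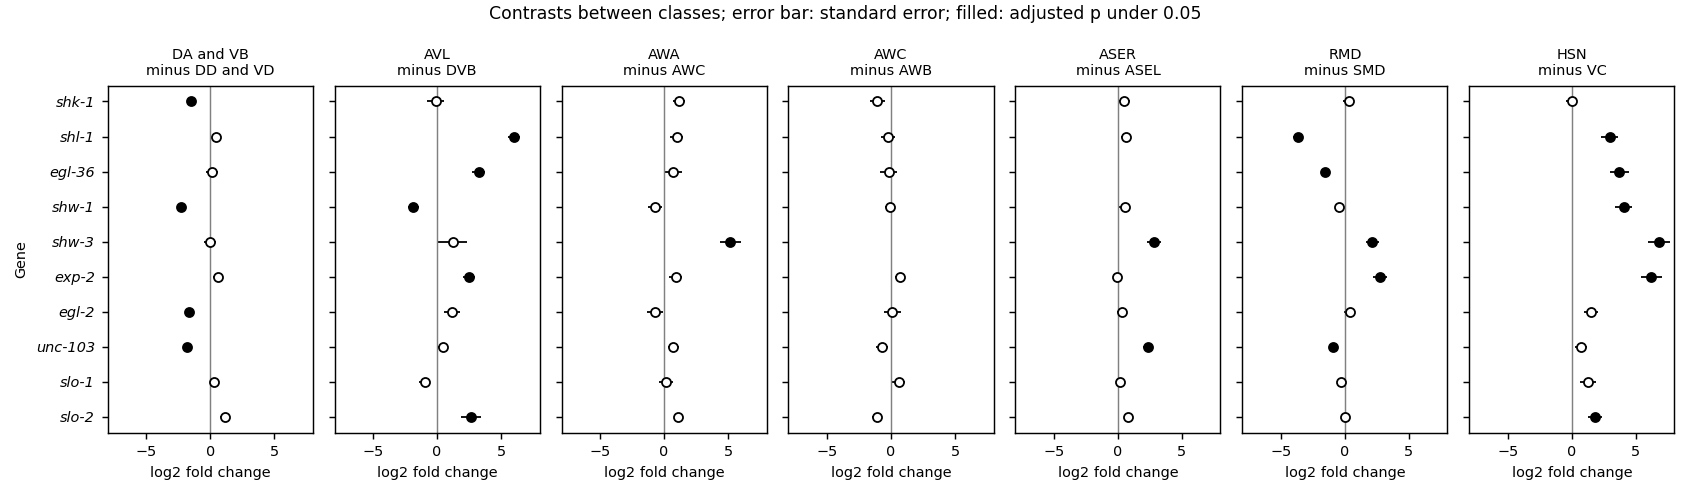
Log2 fold changes (points) with standard errors (bars) of the 10 channel genes in 7 contrasts between classes, filled where the edgeR adjusted p was under 0.05. The largest is shw-3 in HSN minus VC at 6.82, and AWC minus AWB has no filled point.

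Among motor neurons of the ventral cord, the excitatory cholinergic classes DA and VB were set against the inhibitory GABAergic classes DD and VD. Of the 10 genes 4 were lower in DA and VB, where 4.53% of 13044 tested genes were, and none was higher by edgeR (5.05%), with 1 higher at an unadjusted p under 0.05. The gene unc-103 had 37.1 to 62.3 CPM with a median of 44.5 CPM in DA and VB, against 97.55 to 226.4 CPM with a median of 169.8 CPM in DD and VD. No library overlapped (log2 fold change -1.79 ± 0.21, edgeR adjusted p = 2.6e-05). The gene shk-1 had 5.305 to 15.4 CPM with a median of 7.33 CPM in DA and VB, against 17.5 to 40.1 CPM with a median of 22.2 CPM in DD and VD. Again no library overlapped (-1.47 ± 0.24, edgeR adjusted p = 0.000736). The ranges did overlap for shw-1, with medians of 14.9 CPM in DA and VB and 97.2 CPM in DD and VD, and for egl-2, with 21.2 and 70.9 CPM. Their log2 fold changes were -2.26 ± 0.26 and -1.65 ± 0.35 (edgeR adjusted p = 2.34e-05 and 0.00501). The called genes were picked by the test on the same values, so a lack of overlap is no separate support. The share of all tested genes without overlap was not counted.

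The median log2 fold change was 0.07 for the 10 genes and 0.06 over all tested genes. The gene slo-2 was not called (log2 fold change 1.14 ± 0.40, edgeR adjusted p = 0.0915). It was called higher without DAr89 (1.30), without DAr90 (1.27), and with DESeq2 (1.17, adjusted p = 0.0322). Of the 12 related channels kvs-1, kvs-3 and kcnl-2 were higher in DA and VB and kvs-5 and kcnl-4 lower.

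AVL and DVB are both GABAergic and both trigger the expulsion step of defecation. DVB and AVL belong to different label sets, so class and label set cannot be told apart. In AVL 4 of 10 genes were higher (10.6% of 9135 tested genes) and 1 lower (10.1%). The gene shl-1 had 366, 331 and 459 CPM in AVL, against 4.11, 6.42 and 6.59 CPM in DVB (log2 fold change 5.99 ± 0.46, edgeR adjusted p = 1.39e-05). The gene egl-36 had 544, 454 and 671 CPM in AVL, against 16.2, 81.9 and 68.2 CPM in DVB (3.23 ± 0.53, edgeR adjusted p = 0.0013). The groups overlapped for neither gene, nor for exp-2, slo-2, shw-1 or egl-2, the last of which was not called. The called genes were picked by the test on the same values, so that is no separate support. The share of all tested genes without overlap was not counted. The gene exp-2 averaged 84.03 ± 13.8 CPM in AVL and 14.03 ± 8.20 CPM in DVB (SD, n = 3 each, 2.48 ± 0.47, edgeR adjusted p = 0.00301).

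The gene slo-2 had 13.9 to 25.9 CPM in AVL, against 0.612 to 6.93 CPM in DVB, and was called (edgeR adjusted p = 0.0323). The call was lost when any AVL library or DVBr267 was left out, with adjusted p between 0.0601 and 0.131. The gene shw-1 ran the other way, with 105.1 to 138.8 CPM in AVL and 194 to 597 CPM in DVB (-1.87 ± 0.43, edgeR adjusted p = 0.00968). It was not called without scaling factors, with all libraries in a single fit, or without AVLr230 or DVBr267 (adjusted p between 0.0537 and 0.061). Without DVBr265 slo-1 was called lower in AVL (-1.19), and without scaling factors unc-103 was called higher (1.15). Without scaling factors the median log2 fold change of all tested genes was 0.76, against 0.08 with TMM, and 81.2% of calls were higher. The neuronal sums were 31880 to 53970 CPM in AVL and 18930 to 24740 CPM in DVB. Among related channels kvs-3, kqt-3 and kcnl-4 were higher in AVL, as was mps-1, and kvs-5 was lower.

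The olfactory neurons AWA and AWC differed in shw-3 alone by this test. AWA fires calcium action potentials, and AWC signals with graded ones. AWA had 331.3, 150.2, 123.7 and 32.55 CPM, against 1.56 to 8.92 CPM in AWC, with no overlap (5.18 ± 0.81, edgeR adjusted p = 0.00328). As shw-3 was picked by the test on the same values, the lack of overlap is no separate support. The share of all tested genes without overlap was not counted. Of 11100 tested genes 7.23% were higher and 4.07% lower. The gene shk-1 had 17.65 to 148 CPM in AWA, against 27.3 to 52.8 CPM in AWC, and was not called. Without AWAr20, the AWA library with the lowest neuronal sum, shk-1, exp-2 and slo-2 were called higher as well (log2 fold changes 1.43, 1.16 and 1.22, edgeR adjusted p = 0.0176, 0.0499 and 0.0233). The gene slo-2 was also called without AWCr158 (1.34) and with DESeq2 (1.05). The related channels kvs-2, kvs-3, kqt-1, kqt-3 and kcnl-2 were higher in AWA, as was mps-1, and none was lower.

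Between AWC, which drives attraction, and AWB, which drives repulsion, none of the 9 genes tested was called in either direction by edgeR, where 10.6% of 9153 tested genes were higher and 7.47% lower. At an unadjusted p under 0.05, 1 was lower, slo-2. The gene shw-3 was too low to test there. In AWC shk-1 had 27.3 to 52.8 CPM and slo-2 32.4 to 46.2 CPM. In AWB shk-1 had 10.5 to 153.4 CPM and slo-2 39.8 to 122.4 CPM. Without AWBr51 both were called lower in AWC (-1.33 and -1.23, adjusted p = 0.0256 and 0.0295), and slo-2 was also without AWCr158 (-1.30) and with DESeq2 (-1.12). AWBr51 had the lowest neuronal sum of its class, 541.9 CPM against 4079 to 11460 CPM in the other 4, and the highest sum of pharyngeal genes of all libraries, at 1677 CPM. Their part in the calls was not tested. Of the related channels kqt-3 (-2.60) and kcnl-2 (-4.54) were lower in AWC, and of the genes that act with SLO-1 bkip-1 (2.46) and erg-28 (2.75) were higher.

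The salt-sensing neurons ASER and ASEL are the right and left members of a single pair. ASER had more shw-3, at 21.45 to 120.2 CPM against 5.228 to 14.98 CPM in ASEL (log2 fold change 2.80 ± 0.55, edgeR adjusted p = 0.00461). It also had more unc-103, at 302 to 838 CPM against 72.5 to 101 CPM in ASEL (2.34 ± 0.37, edgeR adjusted p = 0.0011). Neither gene overlapped between the sides, and both calls held with each library left out. They were 2 of the 9 channel genes tested, where 6.12% of 10059 genes were higher and 5.27% lower. The gene egl-36 was too low to test. Its libraries did not overlap between the sides either, nor did those of slo-2, which was not called. Both called genes were picked by the test on the same values, so their lack of overlap is no separate support. The share of all tested genes without overlap was not counted. Of the related channels kvs-2, kvs-4, kvs-5 and kcnl-2 were higher in ASER, and none was lower. The sum over other tissues was 1286 to 2975 CPM in ASER and 2521 to 3378 CPM in ASEL. The neuronal sum was 6566 to 16670 CPM in ASER and 6641 to 7149 CPM in ASEL. The part of these sums in the contrast was not tested.

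RMD and SMD are head motor neurons that bend the head, and RMD is known for plateau potentials. RMD had more exp-2, at 141.5 to 265.6 CPM against 9.05 to 58.3 CPM in SMD (2.74 ± 0.53, edgeR adjusted p = 0.0108). It also had more shw-3, at 19.6 to 35.9 CPM against 2.22 to 14.6 CPM in SMD (2.15 ± 0.49, edgeR adjusted p = 0.0227). RMD had less shl-1, at 11.35 to 34.8 CPM against 208.4 to 431 CPM in SMD (-3.68 ± 0.35, edgeR adjusted p = 0.000189). It had less egl-36, at 17.3 to 28.8 CPM against 44.4 to 82.4 CPM (-1.53 ± 0.22, edgeR adjusted p = 0.00199), and less unc-103, at 101.4 to 184.1 CPM against 214.3 to 286.9 CPM (-0.93 ± 0.22, edgeR adjusted p = 0.0257). Libraries overlapped for none of the 5. The 5 were picked by the test on the same values, so that is no separate support. The share of all tested genes without overlap was not counted.

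Of 12453 tested genes 3.07% were higher in RMD and 3.91% lower. The calls of shw-3 and unc-103 were lost when some single libraries were left out (shw-3 without RMDr179, RMDr180, RMDr181, SMDr200 or SMDr202, and unc-103 without RMDr179, RMDr182, SMDr200 or SMDr201). Those of shw-3, unc-103 and egl-36 were lost with all libraries in a single fit. The adjusted p were 0.107, 0.513 and 0.225 there. Of the related channels kcnl-4 was higher in RMD, and kvs-2, kqt-2 and kcnl-2 were lower.

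HSN and VC are the motor neurons of the egg-laying circuit. HSN and VC belong to different label sets, and class and label set cannot be told apart. HSN was higher for 6 of the 10 genes, where 14.8% of 13286 tested genes were higher, and lower for none by edgeR (9.98%), nor at an unadjusted p under 0.05 (0 genes). The gene shw-3 had 16.2, 312 and 36.9 CPM in HSN, against 0 to 2.57 CPM with a median of 0.7215 CPM in VC (6.82 ± 0.87, edgeR adjusted p = 0.000234). The gene exp-2 had 64.2, 930 and 115 CPM in HSN, against 0 to 7.88 CPM with a median of 5.06 CPM in VC (6.18 ± 0.82, edgeR adjusted p = 0.000297). HSNr238 was highest for both. The groups overlapped for none of the 6 called genes. These were picked by the test on the same values, so that is no separate support. The share of all tested genes without overlap was not counted.

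The other genes called higher in HSN were shw-1 (4.03 ± 0.66), egl-36 (3.70 ± 0.72), shl-1 (2.95 ± 0.66) and slo-2 (1.82 ± 0.56), with edgeR adjusted p between 0.00112 and 0.0309. Without HSNr238 all 6 were still called, with log2 fold changes of 4.65 for shw-3, 4.15 for exp-2 and 1.93 for shw-1. The call of slo-2 was lost without HSNr237 or any of VCr141, VCr142 and VCr143. Without HSNr237 slo-1 was called higher (1.71), as was egl-2 without VCr139 (1.82). The gene egl-2 was also called higher with DESeq2 (1.59), with its size factors (1.58) and without the filter (1.52), and slo-1 without the filter (1.29). DESeq2 gave no adjusted p for shw-1 (log2 fold change 4.12). The median log2 fold change was 2.38 for the 10 genes and 0.15 over all tested genes. The sum over other tissues was 1781 to 32410 CPM in HSN and 1476 to 3412 CPM in VC, mostly intestinal genes in HSNr237 and HSNr239. The neuronal sum was 2436 to 8387 CPM in HSN and 1297 to 1922 CPM in VC, without overlap. The part of these sums in the contrast was not tested. Of the related channels, kvs-2, kqt-2 and all 4 kcnl genes were higher in HSN.

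For each gene the most similar other genes were sought by Pearson r of log2(class mean CPM + 1) over the 53 classes, among 13506 genes. The gene slo-1 had the closest match of the 10. It was ctn-1, which encodes an alpha-catulin that places SLO-1 at the membrane, at r = 0.84, followed by alg-1, an Argonaute gene, at 0.80. CEP led both slo-1 and ctn-1, at 415 and 438 CPM. The gene unc-103 had C30D11.6, an ncRNA gene whose span overlaps its own, at 0.77, and the nuclear receptor gene daf-12 at 0.70. The gene shk-1 had nhr-61 at 0.76 and jun-1 at 0.74, and shl-1 had the protein kinase D gene dkf-2 at 0.75. The gene egl-2 had E02A10.3 at 0.74 and daf-19, the RFX factor of ciliated neurons, at 0.69. The gene shw-1 had F13E9.11 at 0.75 and F57B7.2 at 0.70. The closest matches of exp-2, slo-2, egl-36 and shw-3 were dmsr-3 at 0.64, svh-5 at 0.62, acy-1 at 0.59 and Y46G5A.15 at 0.56. The points share libraries and depth. Over the same classes slo-1 had r = 0.74 with the neuronal list. The part of neuronal content in these matches was not tested.

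Beyond the contrasts, the related channels had peak classes of their own. The gene kcnl-1 was highest in ASG at 1527 ± 718.5 CPM (SD, n = 4), kvs-4 in AVM at 779 ± 215.8 CPM (SD, n = 3) and kcnl-2 in AFD at 729.8 ± 229 CPM (SD, n = 5). AFD was the top class of 5 of the 12 related channel genes and of mps-1. VC was the lowest class of 6 of the 12. How often AFD is the top class or VC the lowest over all tested genes was not counted. Over all tested genes AFD was called higher, and VC lower, more often than classes were on average. These counts therefore say little about channels.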

How the data were processed

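Total RNA of sorted libraries from 53 neuron classes was given as counts per gene in a table deposited by the authors for the WS289 gene set. Per the submitters' processing notes, STAR 2.7.7a, UMI-tools 1.1.4, Subread 2.0.3 and featureCounts were used. Their order and strand setting are not given in the sources used here. In that file, 14 other columns of per-sample values were not used, and pan-neuronal and all-cell libraries were not analysed here. From the deposited counts, CPM (count over the TMM-scaled library total) were computed, and RPKM with summed exon lengths. Genes passing filterByExpr (20427) were tested with edgeR 4.0.16 in R 4.3.3, by a quasi-likelihood fit over all 53 classes without covariates, or over the classes of a pair. P-values were Benjamini-Hochberg adjusted over all tested genes, and calls needed an adjusted p under 0.05. The SE given with a log2 fold change was back-calculated, not fitted. It is the absolute log2 fold change divided by the square root of the quasi-likelihood F statistic. The scripts were tested on simulated counts. Gene positions came from Ensembl 115, where 99.8% of spans were the same and 8 IDs were absent.

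The 10 genes and all lists were chosen with earlier results of these data known. Genes named are the 10, the listed related channels and subunits, and the closest matches by correlation among genes with a class mean of at least 10 CPM. Depth ran from 798303 to 24647021 counts. Of 317 library pairs within classes 0 were identical, and chi-square over its degrees of freedom was at least 5.11. Ribosomal RNA took 9.77 to 79.2% of counts. The alternatives were other size factors, no scaling, removal of ribosomal RNA, no filter, limma-voom, DESeq2, the 180 libraries of 46 classes whose description names the kit, other libraries pooled, and leaving out libraries. Scaling to 8 neuronal genes and leaving out IL2r94 were added after seeing the data.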

Additional observations from a re-analysis of the deposited data

Results flagged for a closer look

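In groups of 4 to 10 libraries, the first classes of each gene were searched for a library far from the others (Dixon's 95% limit), and 3 of 38 groups had one. Chance flags about 1 in 20 groups. The Shaker gene shk-1 had 549.9 CPM in AIMr192, against 160.1 to 165.1 CPM in the other 3 AIM libraries. The neuronal sum of AIMr192 was 38620 CPM, against 5887 to 8620 CPM. The EAG gene egl-2 had 98.71 CPM in RIMr224, against 377.6 to 396.9 CPM in the other RIM libraries, and that library's neuronal sum was 3359 CPM, against 7127 to 9608 CPM. The Shaw gene shw-3 had 5.232 CPM in IL2r94, against 94.18 to 110.8 CPM in the other IL2 libraries. The part of neuronal content in these values was not tested.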

How the results depend on the processing

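No result changed direction. With the other libraries pooled, calls of a class higher were 13 and of a class lower 11, instead of 25.5% of 530 tests and 90. The pooled spread includes the differences among the other classes. Scaled to the 8 neuronal genes they were 133 higher (93 shared with the TMM calls) and 110 lower (65 shared). With the same-placed library of each class (first, second and so on) left out in turn, lower calls ranged from 60 to 88, and they were 97 without IL2r94. In the ciliated contrast the 2 lower calls ranged from 1 to 2.

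In the pairs the cause of the following changes was not tested. With DESeq2, genes higher in DA and VB were 1 instead of 0, genes higher in AWA than AWC 2 instead of 1, and genes lower in AWC than AWB 1 instead of 0. In HSN against VC it called egl-2 and gave no adjusted p for shw-1. Genes lower in AVL than DVB were 0 instead of 1 without scaling factors and with all libraries in a single fit. That fit also gave 1 instead of 2 genes higher and 1 instead of 3 lower in RMD than SMD. With single libraries left out, counts ranged from 0 to 1 for higher in DA and VB, from 0 to 2 for lower in AVL, from 1 to 4 for higher in AWA, from 0 to 2 for lower in AWC, and from 1 to 2 for higher in RMD. No paired analysis was possible because no replicate number is shared between classes. Classes with 2 or 3 libraries and low genes, where 3 counts can equal 6.37 CPM, limit precision.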
